A study of Homo sapiens with 6 samples.

Results

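The features described here are the rows of an expression array table whose platform annotation gives more than 1 gene symbol. A row is a transcript cluster, the group of probes that the array summarizes into 1 value. Of the 67528 rows with values on all 6 arrays, 1543 listed at least 2 symbols and form this set, 23781 listed 1 symbol and 42204 listed none. The rule used the annotation alone and no measured value. The cells were PC3, an established human prostate cancer line, transfected with a pre-miR-130a precursor (3 arrays) or with a negative control precursor (3 arrays) in independent experiments. Both arms share the cell line and the transfection. RNA was measured on Affymetrix Human Transcriptome arrays, and the deposited values are log2 values made with RMA.

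A microRNA such as miR-130a is loaded into an Argonaute protein and pairs through its seed, a short stretch near its 5′ end, with messenger RNAs, which are then destabilized or translated less. Array rows come to hold several symbols in different ways. A gene may have been renamed, recent gene copies may share their probe sequences, a small RNA may lie inside a host gene, a readthrough transcript may run from 1 gene into the next, or neighbouring genes may overlap. In each case the single value of the row cannot be divided among its symbols.

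Each row was put in a class from its symbols and from the gene table alone. Paralogs, whose symbols share a stem, made up 588 rows. A further 250 rows held an old and a current name of 1 gene. A small RNA symbol beside the symbol of another gene was found on 246 rows, and 123 rows held small RNAs only. The former are called small RNA host rows below, although the position of the small RNA within the other gene was not checked. Neighbouring genes within 100 kb made up 188 rows and readthrough transcripts 88. Distant genes made up 29 rows, a gene beside an antisense or derived transcript 28, and 3 rows could not be placed. The rows are not independent measurements. They carried 1149 distinct sets of symbols, 182 rows had the same 6 values as another row of the set, and 141 rows were copies on alternate haplotypes. Most rows, 1105, listed 2 symbols, and the longest list had 16.

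Of the rows, 225 carried the symbol of a microRNA, 272 microRNAs in all, and 42 of these rows held 2 microRNAs with a common seed. The mature sequences below, from RefSeq on GRCh38.p14, belong to rows described in the results, and the capitals mark the seed, bases 2 to 8. In this table the seed of miR-130b-3p, AGUGCAA, was shared with miR-301a-3p, miR-301b-3p, miR-454-3p, miR-3666 and miR-4295. The host gene of the miR-17-92 cluster carries seeds that occur in pairs, AAAGUGC in miR-17-5p and miR-20a-5p and GUGCAAA in miR-19a-3p and miR-19b-3p. In addition, miR-19a-5p and miR-19b-1-5p, which are not printed, share GUUUUGC.
miR-130b-3p, chr22:21653354-21653375 (+): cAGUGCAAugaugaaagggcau
miR-17-5p, chr13:91350618-91350640 (+): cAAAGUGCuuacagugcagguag
miR-20a-5p, chr13:91351072-91351094 (+): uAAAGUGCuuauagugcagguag
miR-18a-5p, chr13:91350756-91350778 (+): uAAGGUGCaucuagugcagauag
miR-19a-3p, chr13:91350939-91350961 (+): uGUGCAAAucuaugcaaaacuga
miR-19b-3p, chr13:91351245-91351267 (+): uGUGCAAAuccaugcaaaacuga
miR-92a-3p, chr13:91351361-91351382 (+): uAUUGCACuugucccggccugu
miR-4700-5p, chr12:120723202-120723223 (+): uCUGGGGAugaggacagugugu
miR-614, chr12:12915882-12915904 (+): gAACGCCUguucuugccaggugg
miR-424-5p, chrX:134546680-134546701 (-): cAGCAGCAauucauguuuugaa
miR-4260, chr1:209623482-209623500 (-): cUUGGGGCauggaguccca
miR-3614-5p, chr17:56891319-56891341 (-): cCACUUGGaucugaaggcugccc

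The 120 bases before the RefSeq gene start (GRCh38.p14) are shown for H4C14 and H4C15, which lie at the H4 rows that rose, for H4C8, listed first on an H4 row that was not called, and for the heat shock genes HSPA1A, HSPA1B and HSPA8. Capitals mark every match to GGTCCG, which lies in the cell-cycle element of H4 promoters, and to GAANNTTC, a pair of inverted units of the heat shock element. Both were searched on both strands in all windows shown, and no matches overlap. GGTCCG was present in 12 of the 12 H4 genes with a window and in 4.84% of all 35116 windows of that length. It was also present in 2 of the 3 heat shock genes, HSPA1A and HSPA1B, next to the start. GAANNTTC was present in 3 of the 3 heat shock genes searched, in 0 of the 12 H4 genes and in 2.65% of all windows. The windows of H4C14 and H4C15 differed at 0 of 300 bases, including the bases after the start. A match describes letters and not a site in use.
H4C14, chr1:149832537-149832656 (+): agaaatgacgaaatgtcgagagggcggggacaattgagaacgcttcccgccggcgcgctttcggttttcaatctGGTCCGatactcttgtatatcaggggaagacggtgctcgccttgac
H4C15, chr1:149861160-149861279 (-): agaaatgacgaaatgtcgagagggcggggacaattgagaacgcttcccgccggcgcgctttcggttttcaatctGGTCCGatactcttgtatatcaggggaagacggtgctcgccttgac
H4C8, chr6:26285535-26285654 (-): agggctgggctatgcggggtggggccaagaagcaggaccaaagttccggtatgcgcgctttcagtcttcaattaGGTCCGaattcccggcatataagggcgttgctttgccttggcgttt
HSPA1A, chr6:31815423-31815542 (+): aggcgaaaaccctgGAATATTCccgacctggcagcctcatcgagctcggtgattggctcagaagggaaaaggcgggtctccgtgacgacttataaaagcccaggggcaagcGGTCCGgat
HSPA1B, chr6:31827618-31827737 (+): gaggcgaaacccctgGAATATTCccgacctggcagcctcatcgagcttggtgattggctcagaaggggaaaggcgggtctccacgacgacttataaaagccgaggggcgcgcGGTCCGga
HSPA8, chr11:123062137-123062256 (-): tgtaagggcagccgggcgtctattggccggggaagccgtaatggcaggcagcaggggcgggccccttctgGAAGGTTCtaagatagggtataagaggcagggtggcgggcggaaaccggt

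The label of the cells was checked on rows with 1 symbol. The keratins KRT8 and KRT18 and the adhesion protein EPCAM, which mark epithelium, read 9.16, 9.61 and 7.97 on average in the negative control arm. A second KRT8 row read 7.66 there, and CDH1, also chosen as an epithelial marker, read only 6.35. KLK3, which encodes prostate-specific antigen and is low in PC3, read 5.88. Values of different probes are not on a common scale of abundance. The median of all rows lay between 4.96 and 5.08 on the 6 arrays. Negative control 3 stood somewhat apart, with correlations of 0.992 to 0.993 to the other arrays, whereas the largest correlation, between miR-130a arrays 1 and 3, was 0.997. Of the rows with several symbols, 1148 lay above the median row mean of all rows, 5.00.

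Supplying miR-130a changed few of these rows past the threshold. Fitted with limma over all 67528 rows, 8 of the 1543 rows passed an adjusted p of 0.05, with 4 higher and 4 lower. The background over all rows was 0.663% called, 0.446% higher and 0.218% lower, and rows with 1 symbol gave 1.16%. The called rows name H4 histones, BACH1 and GPRC5A among the rises and UNC119B, HSPA8, MIGA1 and CHMP3 among the falls. The split of 4 and 4 became 8 higher and 4 lower after a second quantile normalization, and 5 and 3 after median centring. Without negative control 1, or without any 1 of the miR-130a arrays, 0 rows passed (86 to 102 at an unadjusted p below 0.05, limma); without negative control 2, 2 rows passed, and without negative control 3, 12, including these 8.

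When the fit and adjustment were limited to the 25324 rows with a symbol, 45 of the 1543 rows passed, 19 higher and 26 lower. The background in that fit was 3.93%, 2.32% higher and 1.61% lower, and 4.0% among rows with 1 symbol. The share of called rows in the set was thus no higher than the background by either rule. The median difference, miR-130a minus negative control, was −0.02 (log2) over the 1543 rows, −0.02 over all rows and −0.01 over rows with 1 symbol. An unadjusted p below 0.05 was reached by 131 rows. The arms did not overlap in 317 rows (20.5%), 135 higher and 182 lower, beside 16.9% of all rows, 7.22% higher and 9.66% lower. By class, this share was largest in the distant rows, 41.4% (12 of 29), followed by 33.7% of the small RNA host rows (83 of 246). It was 28.6% of antisense or derived rows, 28.4% of readthrough rows, 19.1% of neighbours and 18.4% of rows with 1 gene. Paralog rows gave 15.8%, rows with small RNAs only 11.4% and the 3 unplaced rows 0.0%. The classes differ in signal as well: 92.3% of host rows, 85.2% of readthrough rows and 64.1% of paralog rows lay above the median row mean, and the part of the signal in these shares was not tested.

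**Figure D1:**
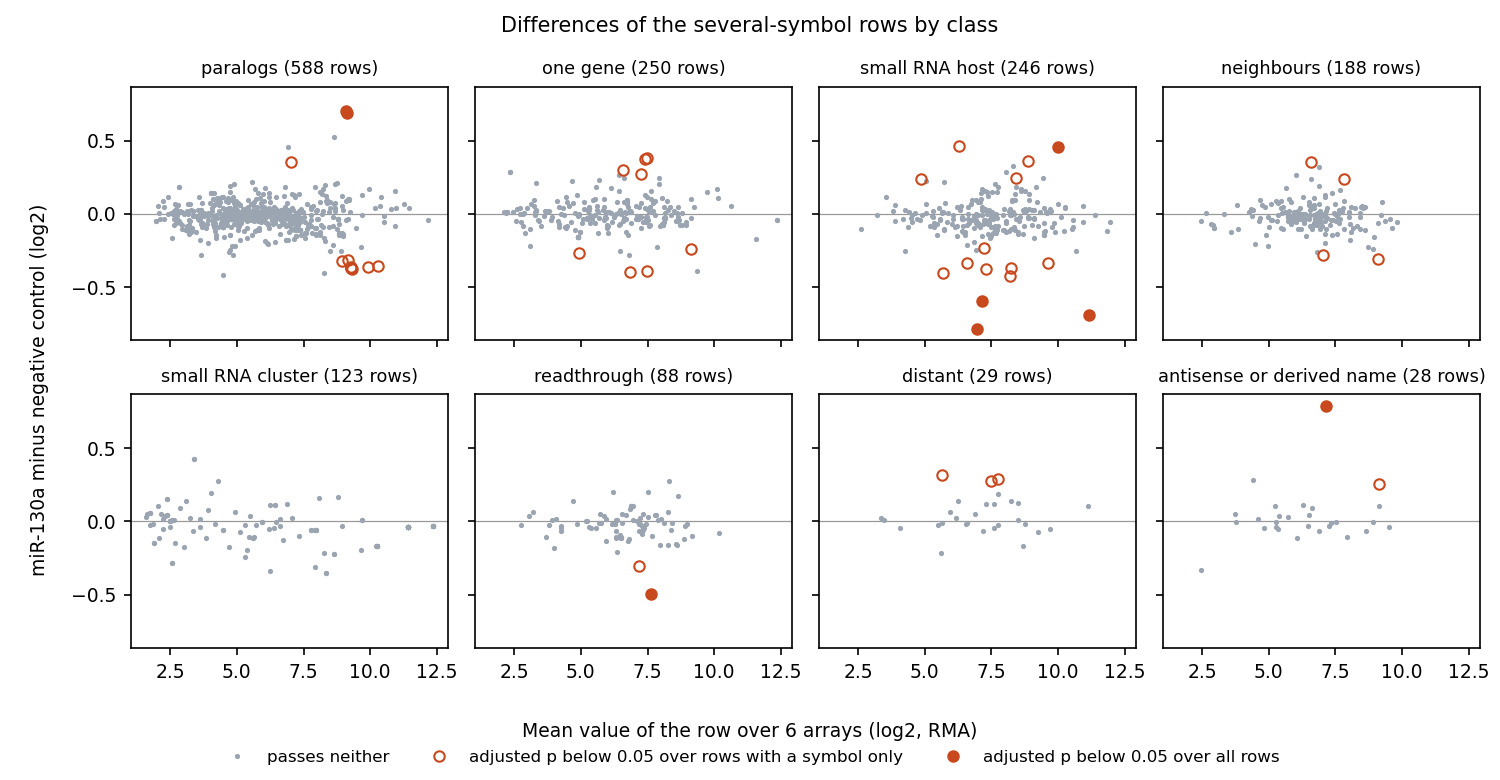
Difference between the arms (miR-130a minus negative control, log2) against the mean of each row over 6 arrays (log2), one panel for each class of row. Most points lie close to 0, filled circles are the 8 rows past the threshold over all rows, and open circles are the 37 that passed only over rows with a symbol.

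Among the 246 small RNA hosts, 3 rows fell and 1 rose, beside 0.218% and 0.446% of all rows. The largest fall was that of UNC119B and MIR4700 on chromosome 12. UNC119B is a carrier of lipid-modified proteins to the cilium, and miR-4700 lies within the gene. The row read 7.50, 7.32 and 7.28 on negative control arrays 1 to 3, and 6.49, 6.69 and 6.56 on miR-130a arrays 1 to 3. Every miR-130a array lay below every control. The difference was −0.79 (SE 0.0875), 1.72-fold lower, with an adjusted p of 0.0192 (limma).

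HSPA8, the constitutive heat shock cognate chaperone of the cytosol, shares its row with SNORD14C and SNORD14D, small nucleolar RNAs cut from its introns that guide methylation of ribosomal RNA. Control values were 11.56, 11.51 and 11.39, and miR-130a values 10.70, 10.89 and 10.80. Every control lay above every miR-130a array. The row fell by 0.69 (SE 0.0778), a 1.62-fold reduction with an adjusted p of 0.0192 (limma). SNORD14D also has a row of its own, which read 7.76, 7.84 and 7.36 in controls and 7.36, 7.61 and 7.89 with miR-130a. The arms of that row overlapped, and its difference was −0.03. The difference between both changes was −0.66 (SE 0.159) with an adjusted p of 0.480, so it did not pass.

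MIGA1, listed under its old name FAM73A, encodes a protein of the outer mitochondrial membrane that promotes fusion and shares its row with the 5S ribosomal pseudogene RNA5SP21. Values of 7.48, 7.51 and 7.32 in controls stood against 6.82, 6.90 and 6.81 with miR-130a. All miR-130a arrays were lower, and the row fell by 0.60 (SE 0.0739, 1.51-fold lower, adjusted p 0.0248, limma).

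GPRC5A, an orphan receptor induced by retinoic acid, was the host that rose, on a row with MIR614. Its values were 9.79, 9.77 and 9.75 in controls and 10.20, 10.24 and 10.24 with miR-130a. The spread within each arm was small beside the gap between them. The rise was 0.46 (SE 0.0579, 1.37-fold, adjusted p 0.0256, limma).

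**Figure D2:**
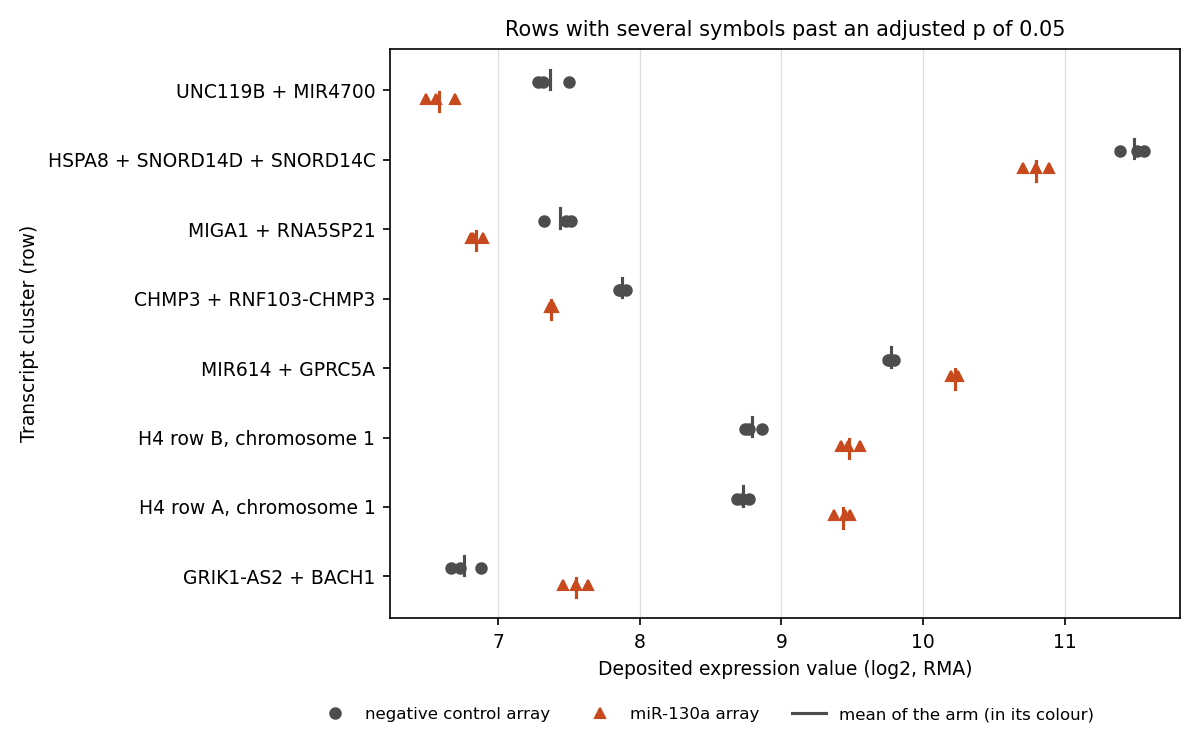
Values of the 8 called rows on each array (log2), with circles for negative control arrays, triangles for miR-130a arrays and a short bar for the mean of each arm. In each row the arms are apart, with UNC119B, HSPA8, MIGA1 and CHMP3 lower and the other 4 rows higher with miR-130a.

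A further 11 host rows passed only when p-values were adjusted over rows with a symbol, where the background was 3.93%. CIT, the citron kinase of cytokinesis, was lower with MIR1178 by 0.42 on the log2 scale (adjusted p 0.0286 over rows with a symbol, 0.106 over all rows, limma). TMEM107, of the ciliary transition zone, lies on a row with SNORD118, the U8 small nucleolar RNA, and differed by −0.40 (0.0256 and 0.102). TRIM25, an E3 ligase of antiviral signalling, differed by −0.33 with MIR3614 (0.0118 and 0.072). STMN1, which destabilizes microtubules, gave −0.24 with MIR3917, and CBX5, the heterochromatin protein HP1 alpha, gave −0.37 with MIR3198-2. PRAC2 with MIR3185 and DPY19L1 with MIR548N gave −0.34 and −0.38.

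On the higher side, LAMB3, a chain of laminin-332, read 8.70, 8.70 and 8.64 in controls and 9.06, 9.06 and 9.02 with miR-130a, on a row with MIR4260. The arms did not overlap, and the difference was 0.37 (SE 0.0592), with an adjusted p of 0.0547 over all rows and 0.00881 over rows with a symbol (limma). MIR424 shares a row with MIR503HG, the host transcript of the miR-424 and miR-503 cluster, and read 6.0, 5.98 and 6.14 in controls against 6.48, 6.42 and 6.61. Its difference was 0.47 (SE 0.0795, adjusted p 0.0148 over rows with a symbol and 0.0645 over all rows, limma). The others were C19orf48P with SNORD88C (0.25) and the imprinted PWAR5 with SNORD64 and SNORD108 (0.24).

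Of the 225 rows with a microRNA symbol, 2 were called over all rows, those of UNC119B and GPRC5A, and 10 over rows with a symbol, 3 higher and 7 lower. The background was 0.663% over all rows and 3.93% over rows with a symbol, 2.32% higher and 1.61% lower. The only row with a microRNA of the miR-130b-3p seed was that of MIR130B and PPIL2, a cyclophilin-type ubiquitin ligase. It read 7.51, 7.45 and 7.46 in controls and 7.48, 7.50 and 7.46 with miR-130a. The arms overlapped, and the 95% interval of the difference ran from −0.13 to 0.15. MIR17HG, listed with its microRNAs and with MIR18B, read 4.70, 4.60 and 4.53 against 4.58, 4.68 and 4.60, a difference of 0.01 (95% interval −0.16 to 0.17). These values lay below the median row mean of all rows, 5.00, where a change may not be seen. VMP1 with MIR21, a microRNA abundant in many tumours, differed by −0.04 (95% interval −0.18 to 0.09). The list of microRNA cluster hosts did not hold MIR424 or MIR503HG, described above. Of its 9 rows, 4 were higher and 5 lower, between −0.11 and 0.12, and none passed by either adjustment.

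A SNORD or SNORA symbol stood on 107 rows. That of HSPA8 was called over all rows, where the background was 0.663%. Over rows with a symbol 4 were called, beside a background of 3.93%. These were HSPA8 and TMEM107 on the lower side and C19orf48P and PWAR5 on the higher side. Hosts of small nucleolar RNAs include genes of ribosomal proteins, such as RPL5 and RPL7A, and noncoding genes such as SNHG1 and GAS5. A list of such hosts, without TMEM107, C19orf48P and PWAR5, covered 47 rows, and HSPA8 was the 1 row of it that passed by either adjustment. The median difference of the list was −0.03, with 36 rows lower and 11 higher, beside a median of −0.02 and 58.0% lower over all rows. Rows with small RNAs alone gave 0 calls among 123 by either adjustment (10 at an unadjusted p below 0.05, limma). The 3 rows of SNAR-A genes, small RNAs transcribed from tandem copies, differed by −0.35 to −0.31. The row of SNAR-A1 and SNAR-A2 read 8.71, 8.33 and 8.53 in controls and 8.24, 8.18 and 8.09 with miR-130a. All miR-130a values were lower, but the adjusted p was 0.261 over all rows and 0.102 over rows with a symbol (limma). SNORD109A and SNORD109B, with identical values on both of their rows, differed by 0.43 (SE 0.129, adjusted p 0.281, limma).

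Readthrough rows gave 1 call among 88, beside 0.663% of all rows. CHMP3 encodes a subunit of ESCRT-III, the complex that severs membrane necks, and its row also lists RNF103-CHMP3, a transcript that begins in the upstream gene RNF103, an E3 ligase of the endoplasmic reticulum. Controls read 7.90, 7.86 and 7.86, and miR-130a arrays 7.37, 7.36 and 7.39. Within each arm the values were nearly alike. The row fell by 0.50 (SE 0.0575, 1.41-fold lower, adjusted p 0.0201, limma). RNF103 has a row of its own, which read 6.73, 6.75 and 6.73 in controls and 6.73, 6.74 and 6.84 with miR-130a. Those arms overlapped, and the 95% interval of the difference ran from −0.11 to 0.18.

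TMED7-TICAM2, with TMED7, a receptor of the early secretory route, and TICAM2, an adaptor of Toll-like receptor 4, read 7.40, 7.37 and 7.28 in controls and 7.05, 7.04 and 7.06 with miR-130a. The arms did not overlap, and the difference was −0.30 (SE 0.0615, adjusted p 0.0206 over rows with a symbol and 0.110 over all rows, limma). The row of STIMATE-MUSTN1, STIMATE, MUSTN1 and ITIH4 gave −0.21 (0.0574 and 0.236), and SGK3 with C8orf44-SGK3 gave 0.20 (0.126 and 0.352), so neither passed. For 28 distinct symbol lists of readthrough rows, a gene named in the readthrough symbol had a row of its own, in 39 pairings. None of these partner rows was called in the fit over all rows, where 0.663% of all rows were called. The arms of the partner row were apart in 21 of the 39 pairings. Some partner rows recur among these, such as MSH5, or are haplotype copies, such as those of ATP6V1G2. Among the readthrough rows, 19 were lower and 6 higher with the arms apart, which gave 28.4% beside 16.9% of all rows. Several of these are copies, such as MSH5 with SAPCD1, which recurs on alternate haplotypes.

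The paralog rows gave 2 calls among 588, beside 0.663% of all rows. Both were for histone H4, the protein at the core of the nucleosome, whose genes are expressed in S phase. There were 13 H4 rows, and each listed the same 14 H4 genes in varying order. They lie on chromosome 6 (10 rows), 1 (2 rows) and 12 (1 row), and the rises were those of the 2 rows on chromosome 1, where H4C14 and H4C15 lie. The first of these read 8.68, 8.77 and 8.72 in controls and 9.45, 9.37 and 9.49 with miR-130a. The second read 8.74, 8.86 and 8.77 against 9.47, 9.42 and 9.55. In both rows every miR-130a array was higher than every control. In bulk RNA, more cells in S phase and more H4 RNA per cell cannot be told apart.

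The rises were 0.71 (SE 0.0645, 1.63-fold, adjusted p 0.0105, limma) and 0.69 (SE 0.0684, 1.61-fold, adjusted p 0.0143). Another row, with H4C8 first, read 8.59, 8.52 and 8.05 in controls and 8.93, 8.70 and 9.11 with miR-130a. Its arms did not overlap, but the spread within each arm was larger, and the difference of 0.53 (SE 0.164) had an adjusted p of 0.297. The other 10 rows overlapped between the arms and differed by −0.20 to 0.06. One symbol list thus stood over rows that rose and over rows that were not called. H4C14 and H4C15 share their whole printed window, and the other 10 H4 genes with a window also hold GGTCCG.

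**Figure D3:**
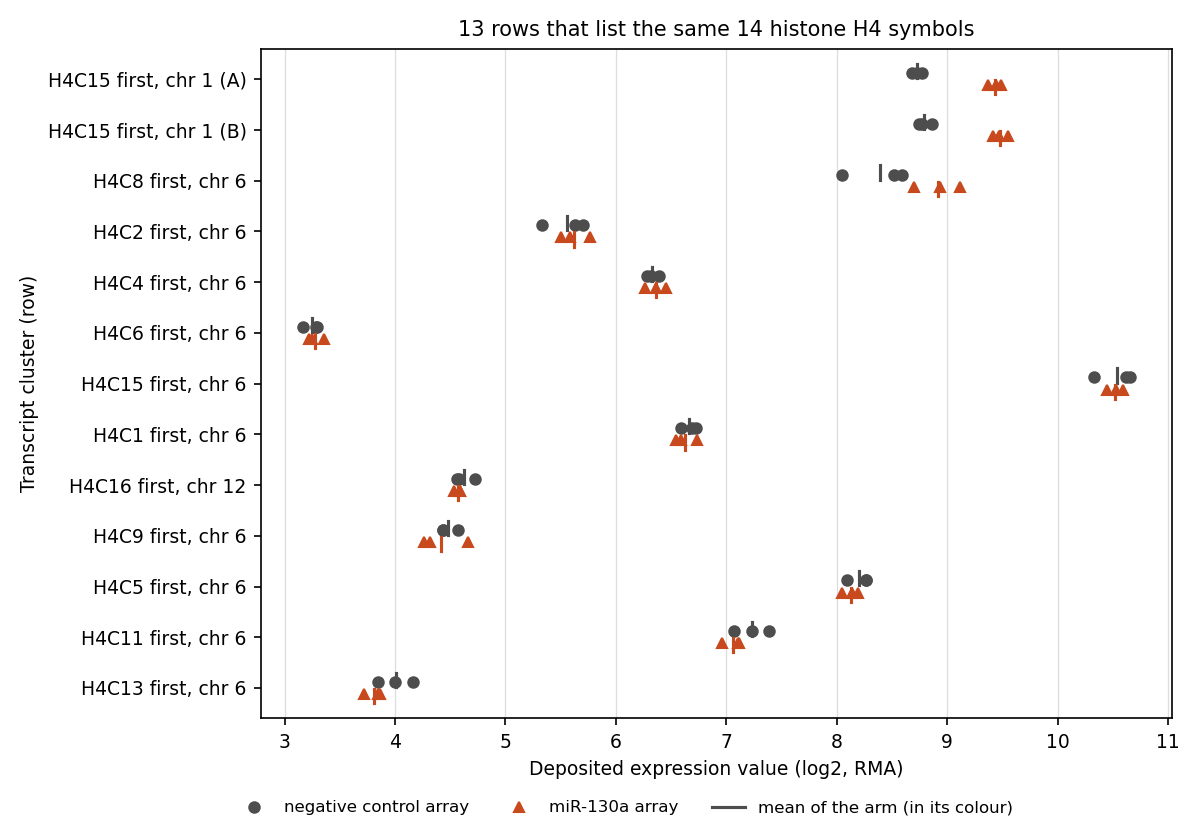
Values on each array (log2) of the 13 rows that list the same 14 H4 symbols, named by the symbol listed first and by chromosome, with circles for negative control, triangles for miR-130a and bars for means. The 2 rows of chromosome 1 and the row with H4C8 first have their arms apart, and the other 10 rows overlap.

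The remaining histone rows, 27 for H2A, H2B and H3, held 0 calls by either adjustment. Of these, 22 were lower and 5 higher, beside 58.0% lower over all rows, with differences from −0.40 to 0.15. Several list the same genes, so they are not independent measurements. H2AC4 with H2AC8 gave the lowest value, −0.40 (SE 0.140), from 8.61, 8.66 and 8.14 in controls and 8.04, 8.15 and 8.01 with miR-130a. Its arms overlapped through negative control 3. Over all 40 histone rows the median was −0.05, beside −0.02 over all rows.

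HSPA1A and HSPA1B, the stress-inducible HSP70 pair of the major histocompatibility region, were listed together on 6 rows, 2 on the reference chromosome and 4 on alternate haplotypes. The reference row with HSPA1A first read 10.52, 10.36 and 10.48 in controls and 10.04, 10.14 and 10.12 with miR-130a. The row with HSPA1B first read 10.18, 10.01 and 10.12 against 9.68, 9.76 and 9.77. Every miR-130a array was lower in both. The 6 differences lay between −0.37 and −0.35, with adjusted p-values of 0.0931 to 0.104 over all rows and 0.0202 to 0.0235 over rows with a symbol (limma). Both genes are nearly identical copies, so these rows are not independent measurements. The 4 rows with HSPA1A alone, on alternate haplotypes, differed by −0.38 to −0.37.

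The list of chaperones, chosen with earlier results of these data known, covered 9 rows. All 9 had negative differences, with a median of −0.37, and 7 of these were HSPA8 and the 6 rows just described. TCP1, a subunit of the cytosolic chaperonin, with SNORA29, read 9.59, 9.60 and 9.45 in controls and 9.40, 9.44 and 9.38 with miR-130a. Its arms did not overlap, and the difference of −0.15 (SE 0.0676) passed neither adjustment (0.535 over all rows and 0.262 over rows with a symbol, limma). MOB4 with HSPE1-MOB4 differed by −0.06, and its arms overlapped. Outside this list, HSP90B1, the HSP90 of the endoplasmic reticulum, with MIR3652, differed by −0.05 (95% interval −0.23 to 0.12) and was the single row of the unfolded protein response list. HSPA8, HSPA1A and HSPA1B are the genes of this list whose windows are printed above. The motif GAANNTTC stands in all 3 windows, at a different distance from the start in HSPA8.

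**Figure D4:**
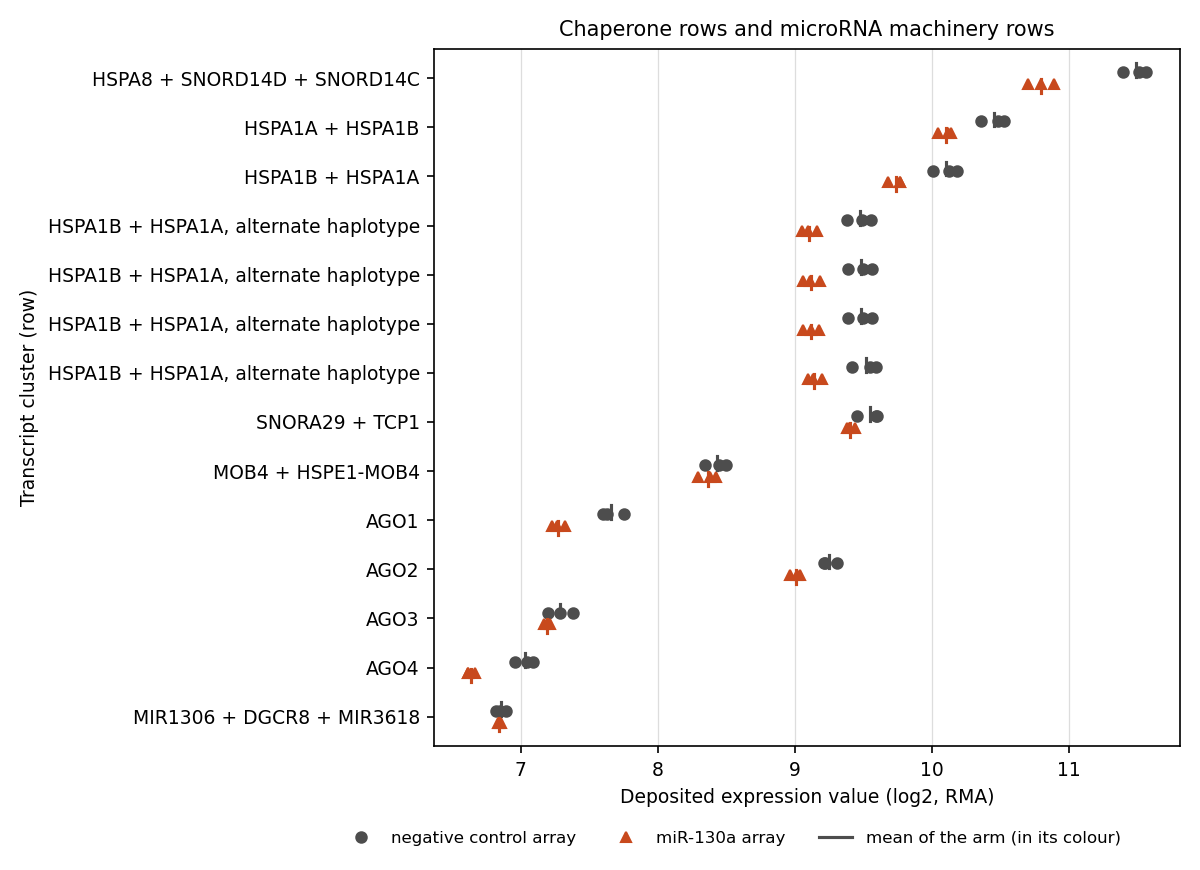
Values on each array (log2) of the 9 chaperone rows and of the 5 microRNA machinery rows, with circles for negative control, triangles for miR-130a and bars for means. The HSPA8, HSPA1A and HSPA1B, and TCP1 rows and AGO1, AGO2 and AGO4 have their arms apart, whereas MOB4, AGO3 and DGCR8 overlap.

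Other paralog rows passed only over rows with a symbol. SEC22B, a SNARE of transport between endoplasmic reticulum and Golgi, with its copy SEC22B3P, read 9.14, 9.11 and 9.01 in controls and 8.73, 8.76 and 8.81 with miR-130a. The arms were apart, with a difference of −0.32 (SE 0.0653, adjusted p 0.0233 over rows with a symbol and 0.113 over all rows, limma). SDHAP1 and SDHAP2, pseudogenes of a succinate dehydrogenase subunit, gave −0.31 (0.0199 and 0.104), and FAM27E3 with FAM27E2 gave 0.36 (0.0263 and 0.110). Neither the core duplicon list nor the cancer-testis list held a called row. Core duplicon families such as NBPF, NPIP and GOLGA8, which spread through segmental duplication, covered 46 rows. Of these, 29 were higher and 17 lower, beside 58.0% lower over all rows, and none passed by either adjustment. Rows of gene copies may share probe sequences and are not independent measurements. Cancer-testis families, normally silent outside the germ line, covered 51 rows, also with none past either adjustment. SSX4 with SSX4B was the lowest of these at −0.41, from 4.91, 4.74 and 4.41 in controls and 4.37, 4.25 and 4.20 with miR-130a (adjusted p 0.294, limma). Its arms were apart, and negative control 3 lay close to miR-130a array 1. The protocadherin alpha row, with 15 symbols of a shared 3′ part, gave 0.09, and the UGT1A row −0.08.

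Rows with an old and a current name of 1 gene hold a single gene and were in the set only through the annotation. They gave 0 of 250 calls over all rows (23 at an unadjusted p below 0.05, limma) and 8 over rows with a symbol. The background was 0.663% over all rows and 3.93% over rows with a symbol. All 4 Argonaute genes, which encode the proteins that carry microRNAs, are in this class, listed with their EIF2C names. AGO4 read 7.09, 7.05 and 6.96 in controls and 6.62, 6.66 and 6.62 with miR-130a. AGO1 read 7.75, 7.63 and 7.60 against 7.26, 7.32 and 7.23, and AGO2 9.30, 9.22 and 9.21 against 9.02, 9.04 and 8.97. In these 3 genes the miR-130a arrays lay below all controls.

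The AGO4 difference was −0.40 (SE 0.0643, adjusted p 0.0536 over all rows and 0.0098 over rows with a symbol, limma). AGO1 gave −0.39 (0.0729 and 0.0146) and AGO2 −0.24 (0.201 and 0.0492). AGO3 read 7.38, 7.28 and 7.20 against 7.21, 7.17 and 7.19, with overlapping arms, and its difference of −0.09 had a 95% interval of −0.26 to 0.07. DGCR8, the partner of DROSHA in the nucleus, shares its row with MIR1306 and MIR3618 and differed by −0.01 (95% interval −0.15 to 0.13). The differences among these genes were not tested.

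The other renamed or merged genes past the adjustment over rows with a symbol were mostly higher. SMIM13, a small membrane protein, read 7.32, 7.24 and 7.29 in controls and 7.70, 7.62 and 7.67 with miR-130a. The arms were well apart, by 0.38 (SE 0.0613, adjusted p 0.0527 over all rows and 0.0089 over rows with a symbol, limma). PRAG1, a pseudokinase listed as SGK223, gave 0.37, PALM2AKAP2 0.30 and TMEM260 0.27. BBOF1, a basal body protein, was the lower one at −0.27.

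Of 28 rows that pair a gene with an antisense or derived transcript, 1 rose, beside 0.446% of all rows. BACH1 encodes a haem-sensitive repressor of antioxidant genes, and its row on chromosome 21 also lists GRIK1-AS2. Controls read 6.73, 6.88 and 6.67, and miR-130a arrays 7.55, 7.46 and 7.63. Every miR-130a array was higher, and this was the largest rise among the 1543 rows, 0.79 (SE 0.0816, 1.73-fold, adjusted p 0.0156, limma). HMOX1, which encodes haem oxygenase and is a known BACH1 target, read 7.24, 7.18 and 7.33 in controls and 7.10, 7.04 and 7.10 with miR-130a on its own row. That difference, −0.17, had an adjusted p of 0.417 over all rows. SOD2, the mitochondrial superoxide dismutase, has 2 rows with SOD2-OT1. One read 8.98, 9.03 and 8.95 against 9.29, 9.20 and 9.24, a difference of 0.26 (adjusted p 0.0378 over rows with a symbol and 0.175 over all rows, limma). The other overlapped, with a difference of 0.11 (SE 0.0970).

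Neighbouring genes gave 0 calls among 188 rows over all rows (16 at an unadjusted p below 0.05, limma) and 4 over rows with a symbol. The background was 0.663% over all rows and 3.93% over rows with a symbol. The row of OR2A7, an olfactory receptor, and the pseudogene ARHGEF34P was higher by 0.36, and that of GLB1, the lysosomal beta-galactosidase, and TMPPE, which lies within it, by 0.24. SPAG5, a spindle protein also called astrin, with RSKR differed by −0.28 (adjusted p 0.0356 over rows with a symbol and 0.159 over all rows, limma). SDHAP2 with MIR570HG read 9.28, 9.27 and 9.19 in controls and 8.90, 8.98 and 8.94 with miR-130a, a difference of −0.31. Its arms were apart, and its difference equals that of the SDHAP1 and SDHAP2 row, with which it shares a symbol.

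Cell-cycle genes met here as neighbours were RRM1, the large subunit of ribonucleotide reductase, with LINC02749, and BUB1B, a spindle checkpoint kinase, with PAK6. RRM1 read 8.86, 8.89 and 8.75 in controls and 8.59, 8.66 and 8.57 with miR-130a, and its difference of −0.23 had an adjusted p of 0.279. BUB1B gave −0.14 (adjusted p 0.579). Both rows had their arms apart, and neither passed. IRF9, a subunit of the interferon-activated factor, with RNF31 gave 0.05. MIR1908 with FADS1, a fatty acid desaturase, gave 0.01. Among the 29 distant rows, 3 passed over rows with a symbol, all higher, beside a background of 3.93%, 2.32% higher. The row of LOC100133920 and LOC286297 gave 0.32 (adjusted p 0.0429 over rows with a symbol and 0.163 over all rows, limma). MTHFD1L, the mitochondrial enzyme of one-carbon metabolism, with LOC100996643 gave 0.28 (0.0257 and 0.136), and WSCD1 with LOC339166 gave 0.29 (0.0492 and 0.186).

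A symbol of a several-symbol row can also have a row of its own. Such pairs show whether both rows changed alike on the same arrays. There were 700 pairs, from 428 several-symbol rows and 301 symbols, and 23 pairs held identical values. Of the 700 pairs, 554 (79.1%) differed by at most 0.1 between their 2 changes. Most rows changed little, with quartiles of −0.07 and 0.03 over the 1543 rows, so a small gap needs no shared symbol. The share among unrelated rows was not computed. Some pairs also repeat the same values, as haplotype copies do. The limma test of the difference called 0 pairs (0.0%), with 54 at an unadjusted p below 0.05.

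The smallest p-values belonged to the H4 rows of chromosome 1 set against the row of H4C3. That row, on chromosome 6, read 9.89, 9.76 and 9.78 in controls and 9.83, 9.77 and 9.86 with miR-130a. Its arms overlapped, with a difference of 0.01. The H4 rows exceeded it by 0.70 (SE 0.0608, adjusted p 0.0794, limma) and 0.68 (SE 0.0691, adjusted p 0.0816). SDHAP2 with MIR570HG differed from the row of MIR570HG alone by −0.31 (SE 0.0410, adjusted p 0.183, limma), since the latter read 6.20, 6.29 and 6.23 against 6.24, 6.23 and 6.25. MIR18B alone, on the X chromosome, read 3.11, 3.15 and 3.21 in controls and 2.68, 2.82 and 2.73 with miR-130a, a difference of −0.41, beside 0.01 for the miR-17-92 row that lists it. The difference between the 2 changes was 0.42 (SE 0.0742, adjusted p 0.380, limma). The mean of the MIR18B row over all arrays was 2.95, well below the median row mean of 5.00.

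In the rest of the 8 smallest, the several-symbol row minus the row of its own symbol was −0.18 for the STIMATE-MUSTN1 row minus ITIH4, −0.36 for DDX5 with MIR3064 and MIR5047 minus MIR5047, −0.16 for FAM138B with FAM138D minus FAM138D, and 0.31 for WWC2 with CLDN22 minus CLDN22. In these, the adjusted p was 0.380 or 0.480. The pairs of HSPA1A with the HSPA1A and HSPA1B rows lay within 0.03 of equal change.

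**Figure D5:**
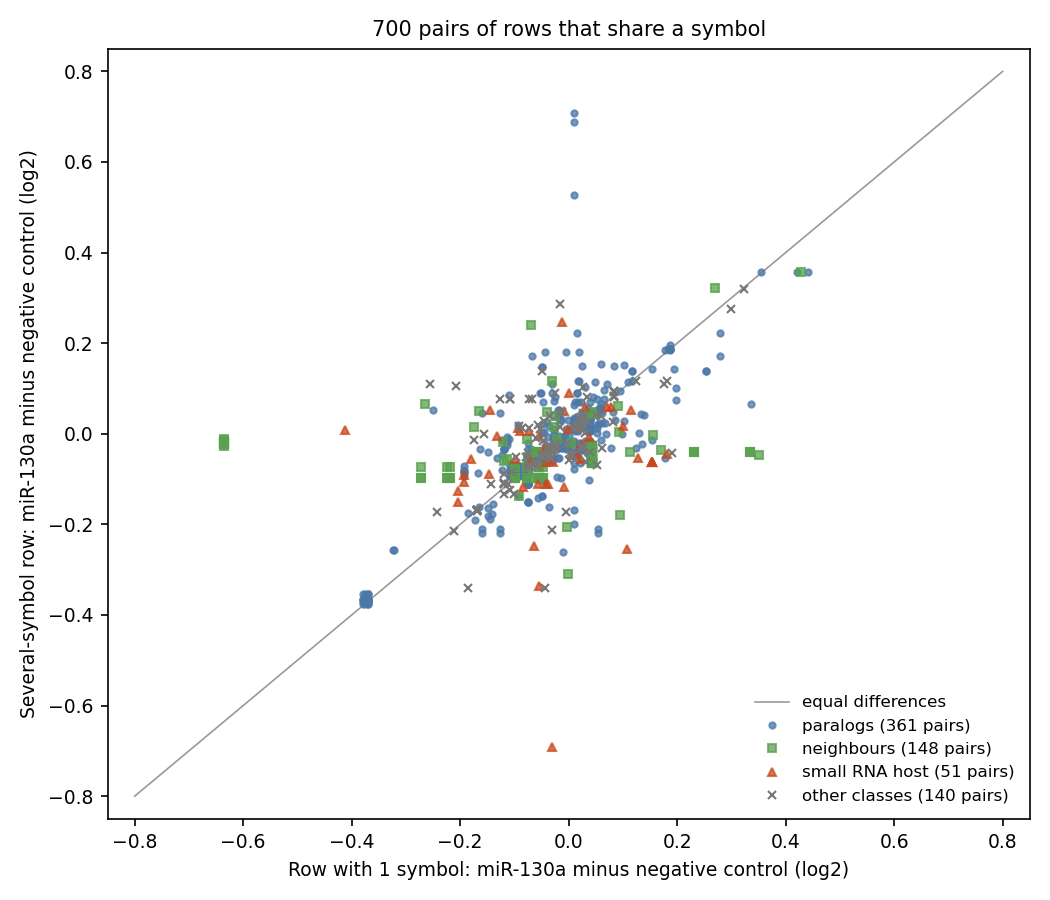
Difference between the arms (log2) of the several-symbol row against that of the row carrying one of its symbols alone, for 700 pairs, with a line of equal differences. Most pairs lie near the line, but most rows changed little in any case. Above 0.5 stand 3 of the 13 H4 rows, over the H4C3 row at 0.01. The HSPA8 row stands at −0.69 over SNORD14D at −0.03.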

How the data were processed

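Per the labels' protocols, RNA of transfected PC3 cells was labelled with the WT PLUS kit and hybridized to Affymetrix Human Transcriptome arrays. The deposited log2 values come from the authors' RMA run, for which the submitters' processing notes name the Expression Console software. Its version and the genome build are not given in the sources used here. RMA quantile-normalizes the arrays and compresses differences, so folds are those of the array. Of 70753 rows, 3225 were empty. Scanner files and detection calls were not used here, and the number of arrays limits the precision.

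Symbols of 1543 rows (4405 entries, 4380 matched) were updated through NCBI's gene table (GRCh38.p14), used for names and neighbours. Classes follow symbols only. The planned use of protein identity for paralogs was not applied, since protein sequences were not used here.

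limma 3.58.1 in R 4.3.3 (lmFit, eBayes, two-sided) compared miR-130a with negative control over 67528 rows, with Benjamini-Hochberg adjustment and a threshold of 0.05. SE is limma's moderated standard error. A second fit tested, within arrays, the several-symbol row minus the row of one of its symbols. The script was tested on simulated data. The series describes 3 independent experiments, and p-values set the difference between the arms against the spread of these samples within each arm.

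Named rows were the 15 largest rises and falls past the threshold with arms apart, the 4 smallest p-values of each class, called rows and the smallest p of each gene list, microRNAs of the miR-130 seed family and the 8 pairs with the smallest p. Others, such as the rows passing only over rows with a symbol and the remaining list members, were named after their values were seen. Members and lists were chosen with earlier results of these data known. Lists of the unfolded protein response, cholesterol synthesis, both cell-cycle phases, and interferon held 1 row each, NF-kB targets 2, and metallothioneins 0. Alternatives were the replicate block, eBayes with trend and robust options, array weights, a second quantile normalization, median centring, a filter at the median row mean (5.00), fits over rows with a symbol, a 1.5-fold minimum, rows with 2 or more current genes, neighbours within 10 kb, leaving out each array and, chosen after seeing the data, identical rows counted once.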

Additional observations from a re-analysis of the deposited data

How the results depend on the processing

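The count of 8 called rows was 0 with the replicate block (108 at an unadjusted p below 0.05, limma), 34 with trend and robust options, 58 with array weights, 35 among the 1148 rows above the median row mean and 45 over rows with a symbol. It ranged from 0 to 12 when 1 array was left out. It was 12 after a second quantile normalization, 8 after median centring, 8 with identical rows counted once, 6 at 1.5-fold or more and 8 among rows with 2 or more current genes. All 8 rows passed with trend and robust options, array weights, the filter, rows with a symbol and without negative control 3. The 0 pairs became 5 with array weights and ranged from 0 to 3 when 1 array was left out. Array numbers did not pair the samples (correlations of −0.0346, −0.0108 and 0.0382 between same-numbered deviations). Each called row kept its direction in every alternative: BACH1 ranged from 0.75 to 0.85, UNC119B from −0.88 to −0.72, HSPA8 from −0.75 to −0.65, and their adjusted p reached 0.114, 0.128 and 0.131. Over all alternatives, a called row stayed past the threshold in 65 cases and missed it in 47. Signs turned only for named rows near 0. NPY4R with PPYR1 gave 0.0289 with array weights, 0.00273 after a second quantile normalization and 0.00366 after median centring. MIR130B with PPIL2 gave −0.0119 and MIR1908 with FADS1 −0.0182 with array weights, and HSP90B1 gave 0.0229 after a second quantile normalization. Leaving out 1 array gave −0.0451 to 0.0331 for NPY4R, −0.0514 to 0.0831 for MROH7 with HEATR8, −0.00265 to 0.0277 for MIR130B, −0.102 to 0.00998 for HSP90B1 and −0.0124 to 0.0359 for MIR1908. The causes were not tested. Neighbours within 10 kb moved no call between classes. A run with symbol stems only would equal the classes used.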
